A study of Homo sapiens with 8 samples.

Results

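The α-satellite arrays of chromosomes 10 and 12 were examined in 2 lists of genomic sites recovered with probes against α-satellite RNA. Members were all listed peaks that start between 38 and 44 Mb on chromosome 10 or between 33 and 42 Mb on chromosome 12 of build hs1, a rule by position alone, although the chromosomes were picked with earlier results of these data known. This gave 4339 of 65588 listed peaks, with 1162 asynchronous and 1187 mitotic peaks on chromosome 10 and 1024 and 966 on chromosome 12. The method was ChIRP, in which biotin-labelled antisense probes capture an RNA together with the chromatin it contacts, and the captured DNA is sequenced. All samples were wild-type RPE1, an immortalised human line derived from retinal pigment epithelium, taken either as an asynchronous culture or as cells labelled Meta, called mitotic here after the series' design text. For each condition the labels name an Odd and an Even probe library, and the deposited list was made from both together, so that there was 1 list per condition. Input and Scr libraries of each condition were not analysed here.

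α-Satellite is the tandem repeat of human centromeres. Its monomers are arranged into higher-order repeats that are copied many times with little divergence, and the kinetochore assembles on the most homogeneous part of such an array. The arrays of chromosomes 10 and 12 belong to a suprachromosomal family in which a pair of monomer types alternates, so that the sequence is built from dimers. Flanking the homogeneous core there are usually more diverged, older α-satellite blocks. The family and the position of these blocks were not checked here, since no hs1 annotation or sequence was used, and for the same reason no sequence is shown. Peak lists carry no transcript levels, so the cell type could not be checked against its markers.

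With 1 list per condition no difference between conditions was tested. Intervals (exact, 95%) reflect counting error alone and treat neighbouring peaks as independent, and sequencing depth is unknown. The sources used are the labels and the lists. Probes against a repeat RNA can also pair with the repeat DNA, and the placement of reads that match many repeat copies is not stated in those sources. Fold enrichment, the authors' ratio of pileup to local background per peak, and their −log10 q value describe and rank peaks within a list. Their scale may differ between lists, so where a fold limit is applied to both lists or partner peaks are set side by side, the values are descriptions. Coverage is the share of an array's length that lies under peaks.

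Chromosome 10 carried many short peaks and chromosome 12 fewer, longer ones. When peaks of both lists no more than 100 kb apart were joined, the chromosome 10 array ran from 39391103 to 42061319, 2.67 Mb, and the chromosome 12 array from 34285578 to 37371921, 3.09 Mb. On chromosome 10 this array held 1161 asynchronous and 1178 mitotic peaks, 43.5 and 44.1 per 100 kb. They covered 0.891 Mb (33.4%) and 0.851 Mb (31.9%). The chromosome 12 array held 974 and 930 peaks, 31.6 and 30.1 per 100 kb, and these covered 1.76 Mb (57.0%) and 1.95 Mb (63.2%). The chromosome 12 array thus had 0.839 times the peaks of the chromosome 10 array in the asynchronous list but 1.97 times the covered length. In the mitotic list the ratios were 0.789 and 2.29. Among the largest such regions of 23 chromosomes, coverage on chromosome 10 was the lowest in both lists, while chromosome 12 was 16th (asynchronous) and 13th (mitotic). The other 21 regions ranged from 40.2% upward with a median of 71.6% in the asynchronous list, and from 38.1% with a median of 73.5% in the mitotic list.

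Peaks were longer on chromosome 12 in both lists. In the windows of the rule the asynchronous list had a median width of 645 bp (623 to 669) on chromosome 10, and the mitotic list had 594 bp (569 to 620). On chromosome 12 it was 1222 bp (1121 to 1320) and 1400 bp (1299 to 1496). The intervals of the arrays did not overlap within either list. Between the lists, they were apart on chromosome 10 and met between 1299 and 1320 bp on chromosome 12. These intervals treat neighbouring peaks as independent and hold no variation between replicate lists. Their overlap between lists therefore cannot decide whether widths differ between conditions, which was not tested. The lists as a whole had medians of 868 and 796 bp. Peaks under 500 bp made up 34.4% and 39.6% of chromosome 10 peaks but 17.9% and 15.01% of chromosome 12 peaks, against 27.5% of all asynchronous and 31% of all mitotic peaks.

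Very wide peaks occurred almost solely on chromosome 12 of this pair. At least 5000 bp were spanned by 62 asynchronous (6.05%, 4.67 to 7.69%) and 75 mitotic peaks (7.76%, 6.16 to 9.64%) on chromosome 12, and by 1 and 2 peaks on chromosome 10 (0.0861% and 0.168%). In the whole lists 3.98% and 4.03% of peaks were that wide. These peaks held 24.2% and 29.4% of the summed peak length on chromosome 12 and 0.938% and 1.29% on chromosome 10. On chromosome 10 peaks from 500 to under 1000 bp held the largest share, 41.6% and 41.4%, and on chromosome 12 peaks from 2000 to under 5000 bp, 38.7% and 40.2%. Within the arrays the share of peaks at least 5000 bp wide on chromosome 10 was the lowest of 23 chromosomes in both lists, and chromosome 12 ranked 9th from the top in both.

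**Figure D1:**
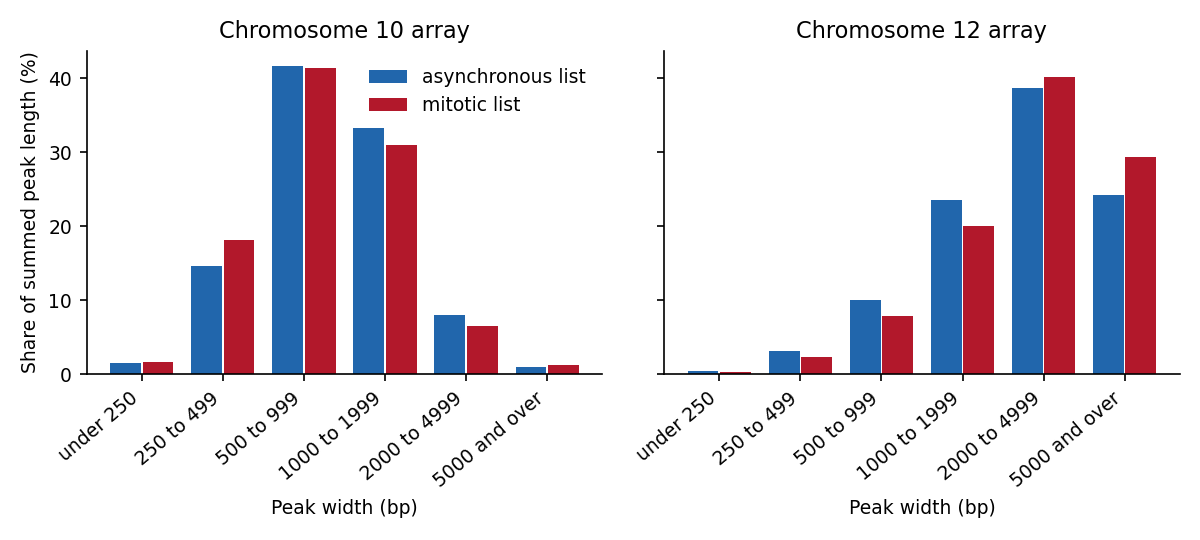
Share of the summed peak length (%, bars start at 0) held by peaks of each width class (bp) in the chromosome 10 and chromosome 12 windows, for the asynchronous (blue) and the mitotic (red) list. Peaks from 500 to under 1000 bp hold 41.6% and 41.4% on chromosome 10, while peaks of 2000 bp and over hold most of the length on chromosome 12.

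At the median, the spaces between peaks showed the same contrast, but long empty stretches did not in the asynchronous list. The median uncovered stretch between neighbouring peaks inside the array was 907 bp on chromosome 10 in the asynchronous list and 902 bp in the mitotic list, the longest of 23 chromosomes in both lists. On chromosome 12 it was 282 and 280 bp, close to the medians of the other 21 chromosomes, 285 and 307 bp. Stretches of at least 5 kb without a listed peak numbered 41 on chromosome 10 and 50 on chromosome 12 in the asynchronous list, and 42 and 31 in the mitotic list. They summed to 448093 and 664857 bp in the asynchronous list and to 515045 and 498738 bp in the mitotic list. Chromosome 12 thus had more of them and the larger sum in the asynchronous list, and chromosome 10 in the mitotic list. The number of long empty stretches was therefore nearly the same in both lists on chromosome 10 and smaller in the mitotic list on chromosome 12.

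Fold enrichment hardly differed between the arrays at the median but did at the top. In the windows of the rule the median was 7.42 (7.19 to 7.58) on chromosome 10 and 7.31 (7.19 to 7.41) on chromosome 12 in the asynchronous list, and 7.89 (7.70 to 8.04) and 7.82 (7.69 to 7.95) in the mitotic list. The intervals of the arrays overlapped in both lists. Values were more spread on chromosome 10: the quartiles were 5.69 and 9.01 there against 6.12 and 8.32 on chromosome 12 in the asynchronous list, and 6.26 and 9.52 against 6.64 and 8.87 in the mitotic list. Peaks were called strong at 6-fold enrichment or more together with a −log10 q from 5 upward. They made up 70.5% (67.8 to 73.1%) of chromosome 10 and 77.5% (74.9 to 80.1%) of chromosome 12 peaks in the asynchronous list, where 73.7% of all peaks passed. In the mitotic list they made up 78.7% (76.2 to 81.0%) and 84.8% (82.4 to 87.0%), against 77.6% of all peaks.

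The order turned around among the strongest peaks. With the limit for strong peaks at 8-fold, 40.8% (37.9 to 43.7%) of chromosome 10 and 31.9% (29.1 to 34.9%) of chromosome 12 peaks passed in the asynchronous list. Of all its peaks 46.4% did. In the mitotic list 48.2% (45.3 to 51.1%) and 45.5% (42.4 to 48.8%) passed, against 49.7%, and there the intervals of the arrays overlapped. Of the 25% of each list with the highest fold enrichment, limits of 9.74 and 9.96, chromosome 10 held 214 and 226 peaks, which were 18.4% (16.2 to 20.8%) and 19.0% (16.8 to 21.4%) of its members. Chromosome 12 held 58 and 92, which were 5.66% (4.33 to 7.26%) and 9.52% (7.75 to 11.6%). Both arrays were thus below the 25% of the list as a whole. The highest fold enrichment in the chromosome 12 array, 11.7, was the lowest maximum of the 23 regions in the asynchronous list, and 13.3 was the second lowest in the mitotic list. On chromosome 10 the maxima were 14.5 and 14.9.

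Along the chromosome 10 array, coverage was low in both lists, with a dip inside the array and the highest values near the far end. In windows of 100 kb the middle 24 windows, from 39591103 to 41991102, were covered over 36.0% (asynchronous) and 34.8% (mitotic). The 27 windows ranged from 8.14 to 50.1% in the asynchronous list and from 4.10 to 53.9% in the other, with quartiles of 31.0 and 39.2% and of 28.8 and 36.5%. A dip to 18.4 and 19.4% lay at 40691103 to 40791102, where 20108 bp from 40705022 to 40725129 held no peak of either list. Coverage was highest near the far end, with 50.1 and 50.2% at 41591103 to 41691102 and 48.8 and 53.9% at 41791103 to 41891102. The 2 longest empty stretches lay just beyond, 34928 bp from 41932648 and 44851 bp from 41967999.

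Along the chromosome 12 array, a nearly full block was followed by a long, less covered stretch. In 4 windows from 34785578 to 35185577 coverage was at least 80% in both lists, and over the block it was 86.2% (asynchronous) and 91.5% (mitotic). Peaks in this block had median widths of 1816 and 2346 bp and median fold enrichments of 8.45 and 9.21. The 2.1 Mb beyond it, to 37285577, were covered over 61.6 and 68.8%, with median widths of 1295 and 1418 bp and median fold enrichments of 7.32 and 7.78. The 2 windows before the block reached 47.5 and 55.8%. The first 300 kb of the array were nearly empty, at 4.76 and 5.87%, and held the longest stretch without a peak, 55303 bp from 34499124. No window of chromosome 10 reached 80% in either list. The limit of 80% was chosen after the windows had been seen.

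**Figure D2:**
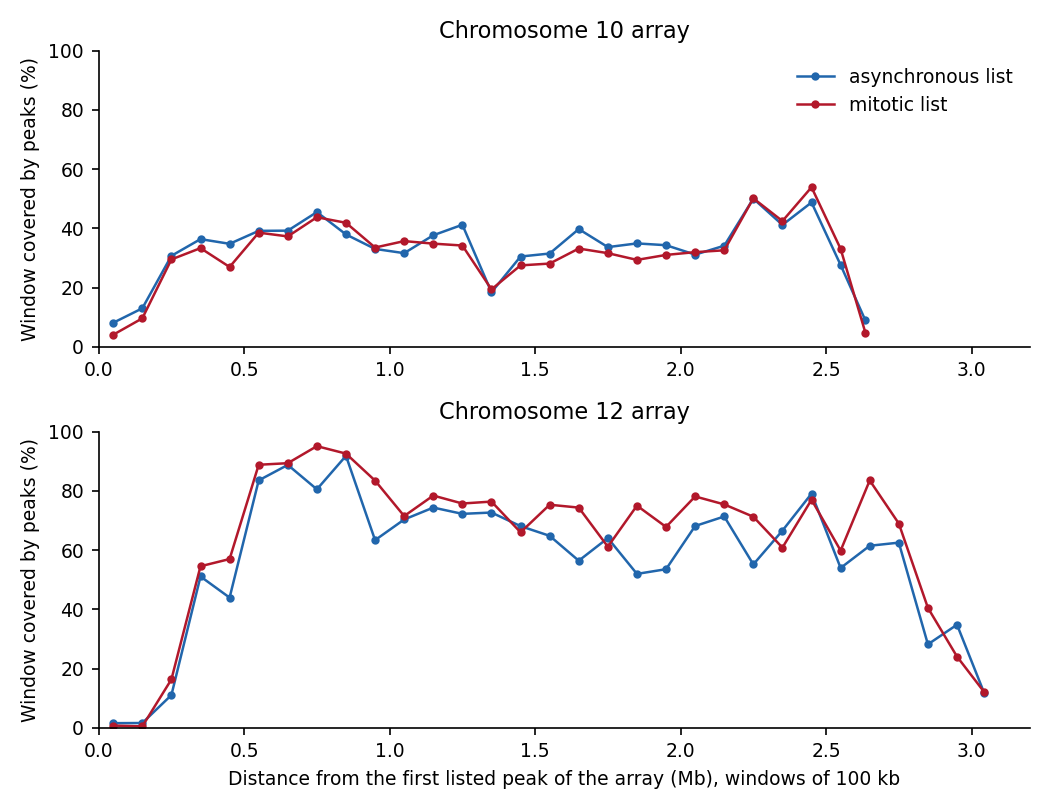
Share of each 100 kb window covered by peaks (%) against the distance from the first listed peak of the array (Mb), for chromosome 10 (top) and chromosome 12 (bottom), asynchronous (blue) and mitotic (red) lists; the last window of each array is shorter. Chromosome 10 stays at or below 53.9% throughout, and chromosome 12 shows a block of 4 windows above 80% near its start and mitotic values above the asynchronous ones in 24 of 31 windows.

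Over all listed peaks, the covered length of the lists differed in opposite directions on the 2 chromosomes. On chromosome 10 the array's covered length in the mitotic list was 0.955 times that of the asynchronous list, 18th of 23 chromosomes from the top. On chromosome 12 it was 1.11 times, the highest of 23, with the next highest at 1.04 on chromosome 6. As log2 ratios these were -0.07 and 0.15. The ratio of mitotic to asynchronous peaks in the windows of the rule was 1.02 (0.941 to 1.11) on chromosome 10 and 0.943 (0.863 to 1.03) on chromosome 12, and both intervals included 1. On chromosome 12 the longer coverage thus came with no more peaks. With strong peaks only, the ratio of covered length became 1.04 on chromosome 10 and 1.16 on chromosome 12, and chromosome 12 was then the third of 23, with chromosome 7 highest at 1.27. With a −log10 q of at least 5 as the only limit, the ratio was 0.9993 on chromosome 10 and 1.12 on chromosome 12. The lower mitotic coverage of chromosome 10 was thus not seen under either filter.

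The gain on chromosome 12 was spread over the array. Coverage was higher in the mitotic list in 24 of 31 windows (77.4%), against 9 of 27 on chromosome 10 (33.3%), 47% of the windows of all 23 regions and 46.1% of those of the other 21. It was higher by more than 10 percentage points in 10 windows of chromosome 12 and lower by more than 10 in 1. On chromosome 10 no window differed by that much. The 3 largest differences on chromosome 12 were from 52.0 to 75.03% at 36085578 to 36185577, from 61.5 to 83.5% at 36885578 to 36985577 and from 63.4 to 83.5% at 35185578 to 35285577. The largest difference the other way was from 34.8 to 24.1% at 37185578 to 37285577, near the far edge, followed by 66.6 to 60.9% at 36585578 to 36685577 and 64.1 to 61.2% at 35985578 to 36085577.

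Counted in percentage points, the window differences on chromosome 10 were small in both directions, from a lower coverage than on chromosome 12. The largest in favour of the asynchronous list were from 34.8 to 27.0% at 39791103 to 39891102, from 41.2 to 34.2% at 40591103 to 40691102 and from 39.8 to 33.2% at 40991103 to 41091102. The largest in favour of the mitotic list lay side by side at the far end, from 27.6 to 33.1% at 41891103 to 41991102 and from 48.8 to 53.9% at 41791103 to 41891102, followed by 31.6 to 35.7% at 40391103 to 40491102. The order of windows was alike in both lists, with a Spearman correlation of 0.84 over 27 windows on chromosome 10 and 0.86 over 31 on chromosome 12. The windows share a reference sequence and the edges of the array, so these values are descriptions.

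**Figure D3:**
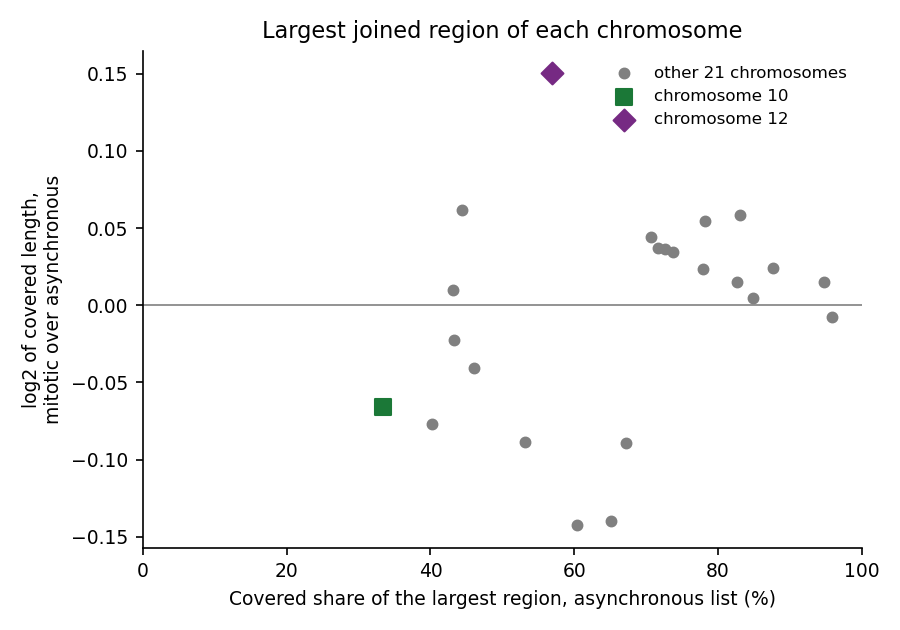
The log2 ratio of covered length, mitotic over asynchronous list, against the covered share of the region in the asynchronous list (%), for the largest joined region of each of 23 chromosomes; each point is 1 region and the line marks no difference. Chromosome 12 (diamond) has the highest ratio, 0.15, and chromosome 10 (square) the lowest coverage, 33.4%, with a ratio of -0.07.

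Peaks of the 2 lists corresponded 1 to 1 on chromosome 10 more often than on chromosome 12. On chromosome 10, 740 pairs of peaks met only each other, 63.7% of asynchronous and 62.3% of mitotic members. On chromosome 12 there were 297 such pairs, 29.0% and 30.7%. In the whole lists 46% of asynchronous and 43.9% of mitotic peaks were in such a pair. In these pairs the median distance between starts was 53 bp on chromosome 10 and 103 bp on chromosome 12, and between ends 51 and 104 bp. The mitotic peak was the wider in 318 and the narrower in 409 of the chromosome 10 pairs (median change -24.0 bp), and the wider in 171 and the narrower in 124 of the chromosome 12 pairs (median change 69.0 bp). Over all such pairs in the lists 45.1% were wider in the mitotic list. Widths of paired peaks had a Spearman correlation of 0.70 on chromosome 10 and 0.65 on chromosome 12, and fold enrichments one of 0.59 and 0.57.

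On chromosome 12 many peaks of one list spanned several of the other. Inside the array 222 mitotic peaks (23.9%) each met more than 1 asynchronous peak, 526 in all, and the spaces between those asynchronous peaks summed to 98206 bp. In the other direction 187 asynchronous peaks (19.2%) met more than 1 mitotic peak, with 59301 bp between them. On chromosome 10 only 52 mitotic (4.41%) and 69 asynchronous peaks (5.94%) did so, over 9015 and 14302 bp. The mitotic share on chromosome 10 was the lowest of 23 and the asynchronous one the second lowest, while chromosome 12 was 6th and 8th from the top. The most asynchronous peaks met by 1 mitotic peak numbered 6 on chromosome 12 and 3 on chromosome 10.

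The covered length found in only 1 list came from both matched and unmatched peaks. In the chromosome 12 window 557465 bp were covered only in the mitotic list and 352476 bp only in the asynchronous list, and 62.8% and 56.9% of these bases lay in peaks that met a peak of the other list. Mitotic peaks without an asynchronous partner covered 207328 bp, and asynchronous peaks without a mitotic partner 151871 bp. On chromosome 10 the bases of a single list were 231298 bp in the mitotic and 269645 bp in the asynchronous list, and 43.3% and 47.9% of them lay in matched peaks. Shared bases made up 69.8% of what the asynchronous list covered on chromosome 10 and 72.9% of what the mitotic list covered, and 80.6% and 72.4% on chromosome 12. The Jaccard index, shared over combined bases, was 55.4% and 61.6%, and it rises with coverage. Inside the arrays it was 55.6% and 63.0%, 19th and 17th of 23 regions from the top. The median of the other 21 regions was 74.5%.

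Long stretches empty in one list were less filled by the other on chromosome 10 than on chromosome 12. Of the length in asynchronous stretches of at least 5 kb without a peak on chromosome 12, 26.6% was covered in the mitotic list, against 18.6% in the reverse case. On chromosome 10 the values were 8.14% and 8.89%. Chromosome 12 ranked 13th and 11th of 23, near the medians of the other 21 chromosomes, 30.9% and 18.2%, and chromosome 10 ranked 20th in both. Coverage of the whole array was also lower on chromosome 10, 33.4% (asynchronous) and 31.9% (mitotic), against 57.0% and 63.2% on chromosome 12. The part of coverage in the filled shares was not tested. By bases covered in the mitotic list, the first asynchronous stretch of chromosome 12 ran from 36168622 to 36186053, where 12995 of 17432 bp were covered by 5 mitotic peaks with a fold enrichment of up to 8.33. It was followed by 35905547 to 35922125, with 11804 of 16579 bp, and 35461396 to 35473425, with 9955 of 12030 bp. By the same measure in the reverse direction, 9477 of 11974 bp from 37208271 to 37220244 were covered only in the asynchronous list. Peak names carry running numbers, and 7, 9 and 8 asynchronous numbers were missing across the first 3 of these stretches and 3 mitotic numbers across the last. If a missing number is a call that was not kept, its own place and width are unknown. What part such calls have in the difference was not tested.

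Whether a peak met the other list followed its fold enrichment on both chromosomes. Counting any overlap of 1 bp or more, 903 asynchronous chromosome 10 peaks (77.7%, 75.2 to 80.1%) and 856 of chromosome 12 (83.6%, 81.2 to 85.8%) met a mitotic peak, against 81.9% of the whole list. Of mitotic peaks 922 (77.7%, 75.2 to 80.01%) and 776 (80.3%, 77.7 to 82.8%) met an asynchronous one, against 79.2%. Inside the arrays, the share met ranked 19th of 23 on chromosome 10 and 16th on chromosome 12, in both lists. It was 77.8 and 86.0% for asynchronous peaks and 78.3 and 81.6% for mitotic peaks. The median of the other 21 regions was 89.1% in both lists. Among strong asynchronous peaks 89.7% and 90.1% were met on chromosomes 10 and 12 (91.7% in the whole list), and among the others 49.0% (43.6 to 54.4%) and 61.3% (54.7 to 67.6%), against 54.5%. Among mitotic peaks the shares were 87.5% and 85.7% of the strong (88.9% in the whole list) and 41.5% (35.4 to 47.8%) and 50.3% (42.0 to 58.7%) of the others, against 45.6%. Below a fold enrichment of 5, 71 of 192 asynchronous chromosome 10 peaks (37.0%, 30.1 to 44.2%) and 60 of 112 on chromosome 12 (53.6%, 43.9 to 63.0%) were met. At 10 and over it was 178 of 182 (97.8%, 94.5 to 99.4%) and 42 of 44 (95.5%, 84.5 to 99.4%). Wider peaks meet another peak more easily, and chromosome 12 peaks were the wider. In the asynchronous list median fold enrichment also rose with width. On chromosome 10 it went from 4.33 under 250 bp to 8.24 from 2000 to under 5000 bp, and on chromosome 12 from 4.33 to 7.59. The share met was not split by width, so the part of width in its rise with fold enrichment was not tested.

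**Figure D4:**
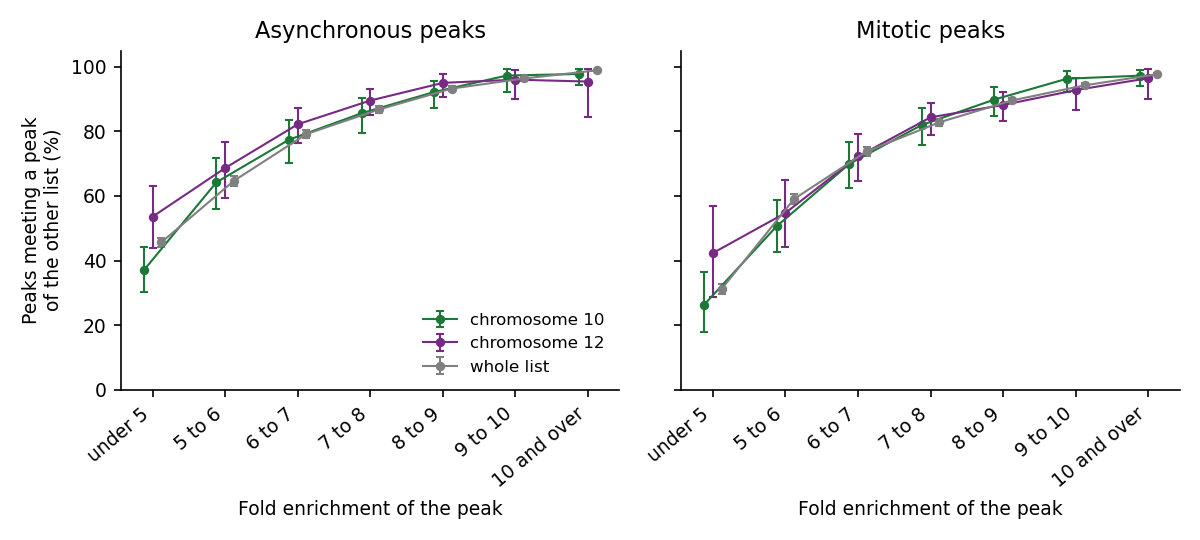
Share of peaks that meet a peak of the other list (%) by class of fold enrichment, for asynchronous (left) and mitotic (right) peaks of chromosome 10 (green), chromosome 12 (purple) and the whole list (grey); bars are exact 95% intervals for counting error. From under 5 to 10 and over, the share goes from 37.0% to 97.8% for asynchronous peaks of chromosome 10 and from 53.6% to 95.5% for those of chromosome 12.

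Requiring a reciprocal overlap of at least 50% reversed the order of the arrays. Then 62.7% of asynchronous and 61.3% of mitotic peaks were shared on chromosome 10, above the 53.8% and 51.3% of the whole lists, and 39.5% and 41.8% on chromosome 12, below them. Peak by peak, chromosome 10 was thus the better matched by this rule, while a higher share of asynchronous chromosome 12 peaks was met at all. Shared bases did not follow that order in the asynchronous list, with 69.8% of its coverage on chromosome 10 and 80.6% on chromosome 12. In the mitotic list they were 72.9% and 72.4%. Peaks that met nothing were short on chromosome 10, with a median of 424 bp against 699 bp for the met ones in the asynchronous list and 393 against 668 bp in the mitotic list. On chromosome 12 the medians were 596 against 1404 bp and 743 against 1597 bp.

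The strongest peaks of chromosome 10 were short sites present in both lists. The asynchronous peak with the highest fold enrichment, 14.5, lay at 40256802 to 40257248, and the mitotic peak over it had 12.02. The next, at 41441204 to 41441745 with 14.4 and at 41621405 to 41622119 with 14.1, had mitotic partners of 13.5 and 13.4. In the mitotic list the highest value, 14.9, was at 40235377 to 40235848, with an asynchronous partner of 12.4. The peak at 40814076 to 40814669 had 14.6 in the mitotic list, and the asynchronous peak over it, which was longer, had 7.13. The last of these, at 40266228 to 40266771, had 13.8 and its partner 12.9.

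On chromosome 12 the strongest peaks were also short, from 694 to 1068 bp, and 81.8 to 100% of each was covered in the other list. As on chromosome 10, the strongest peaks of each list had weaker partners in the other. The mitotic peak at 35781425 to 35782196 had a fold enrichment of 13.3 and lay inside an asynchronous peak of 8.32. That at 36710902 to 36711669 had 12.8 and a partner of 5.11, and that at 36722251 to 36722948 had 12.8 and a partner of 8.76. The strongest asynchronous peaks, at 36684428 to 36685241 with 11.7, 34870753 to 34871446 with 11.5 and 35627429 to 35628496 with 11.5, had mitotic partners of 10.8, 10.1 and 8.68. Peaks picked as the highest of a list tend to have a lower partner in the other list.

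The widest peaks of chromosome 10 lay at the far end of the array. In the asynchronous list they were 8369 bp at 41911603 to 41919971, 3991 bp at 41898654 to 41902644 and 3767 bp at 41904780 to 41908546. In the mitotic list they were 5696 bp at 41888252 to 41893947, 5294 bp at 41914979 to 41920272 and 4594 bp at 41787554 to 41792147. All 6 were covered over 83.2 to 98.8% in the other list. The widest asynchronous peak was met by 3 mitotic peaks that together covered 95.4% of it.

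On chromosome 12 the widest peak of both lists lay outside the main array. It began at 37548502 and spanned 14397 bp in the asynchronous list, and it began at 37548130 and spanned 24091 bp in the mitotic list, with fold enrichments of 10.7 and 11.1. Inside the array the widest mitotic peaks were 21070 bp at 35247903 to 35268972, which met 4 asynchronous peaks covering 60.1% of it, and 15794 bp at 34792580 to 34808373, which met 6 covering 92.2%. The widest asynchronous ones were 12443 bp at 36078803 to 36091245, which met 4 mitotic peaks covering 79.97%, and 12011 bp at 34858636 to 34870646, which met 3 covering 96.0%. These long peaks inside the array each met several peaks of the other list, while the widest peak, outside it, met 1 in both lists. Peaks picked as the widest of a list tend to span several of the other.

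A second, sparse group of peaks followed the chromosome 12 array after a gap and had no counterpart on chromosome 10. It ran from 37548130 to 37922216 and held 48 asynchronous and 34 mitotic peaks, of which 14 and 15 were strong. Coverage was 15.05% (56284 bp) and 18.3% (68515 bp), and the median fold enrichment was 5.19 and 5.86. Only 28349 bp were shared, a Jaccard index of 29.4%. On chromosome 10 a group from 42819176 to 42958651 held 6 mitotic and 0 asynchronous peaks, none of them strong, with 1525 bp in all. The other members outside the main arrays were 3 mitotic and 1 asynchronous peaks on chromosome 10 and 2 and 2 on chromosome 12, all with a fold enrichment under 5.

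Running numbers were missing from the peak names of both arrays, and the sources used do not say why. Inside the chromosome 10 array 1161 of 2310 asynchronous numbers (50.3%, 48.2 to 52.3%) and 1178 of 2257 mitotic numbers (52.2%, 50.1 to 54.3%) were present. Inside the chromosome 12 array it was 974 of 1697 (57.4%, 55.002 to 59.8%) and 930 of 1498 (62.1%, 59.6 to 64.5%). Over the whole lists 42.4% and 22.4% of numbers were present. Both arrays were in the lower part of the 23 regions, 20th and 19th from the top for chromosome 10 and 18th and 17th for chromosome 12. Over the whole windows of the rule the shares were 49.7 and 50.2% on chromosome 10 and 51.7 and 51.0% on chromosome 12, so on chromosome 12 the order of the lists depends on whether the flanks are counted. Near the edges fewer were present: 12.8 and 9.30% in the first 300 kb of chromosome 12 and 23.7 and 13.6% in the first 200 kb of chromosome 10.

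An unnamed deposited score, which runs from 0.3 to 1, also separated the arrays. Its median was 0.780 (0.764 to 0.797) and 0.810 (0.792 to 0.824) on chromosome 10, and 0.604 (0.589 to 0.625) and 0.640 (0.619 to 0.661) on chromosome 12. Inside the arrays chromosome 10 ranked 5th and chromosome 12 21st of 23 in both lists. The score was lower for wider peaks in the chromosome 10 asynchronous list, from a median of 0.884 under 250 bp to 0.650 from 2000 to under 5000 bp, and in that of chromosome 12, from 0.784 to 0.545. Among peaks from 500 to under 1000 bp the difference between arrays remained, at 0.784 against 0.666 (asynchronous) and 0.811 against 0.721 (mitotic). What the score measures is not stated in the sources used here.

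Distances between peak ends repeated at 340 bp on chromosome 10. Periods from 300 to 4000 bp were scored on all distances up to 20 kb between peak positions of an array, with no test of chance. A score is the cosine sum of the counts of distances at that period after a moving mean is removed, divided by the square root of the number of distances over 2. For peak ends of chromosome 10 the leading period was 340 bp in both lists, with scores of 8.87 and 11.4, and the next leading period scored 2.72 and 2.90. The 340 bp score ranked 3 of 21 arrays with at least 200 peaks in both lists, where the highest values were 25.8 and 22.1 on chromosome 5. The median of the other arrays was 1.67 and 2.06. Of distances of 500 bp and over, 17.1 and 17.6% were no more than 25 bp from a multiple of 340 bp, a range that takes up 14.9% of those distances.

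Chromosome 12 did not show this spacing at its peak ends. Its 340 bp scores for ends were 1.75 and 1.89, ranks 11 and 12 of 21, and 15.5 and 15.7% of distances lay near a multiple of 340 bp. The leading periods for ends were 306 bp (asynchronous) and 1000 bp (mitotic), with scores of 2.85 and 3.05. For peak starts chromosome 12 led at 680 bp in both lists, with scores of 5.02 and 3.62, but in the mitotic list 628 bp scored 3.61. For peak starts of chromosome 10 the leading period was 1158 bp with a score of 2.59 in the asynchronous list and 340 bp with 4.27 in the mitotic list. For midpoints the leading periods differed between the lists on both chromosomes, 616 and 626 bp on chromosome 10 and 696 and 448 bp on chromosome 12. The score can also lead at a whole fraction of a longer repeat. Both lists lie on the same reference, so a period found in both is not independent support.

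**Figure D5:**
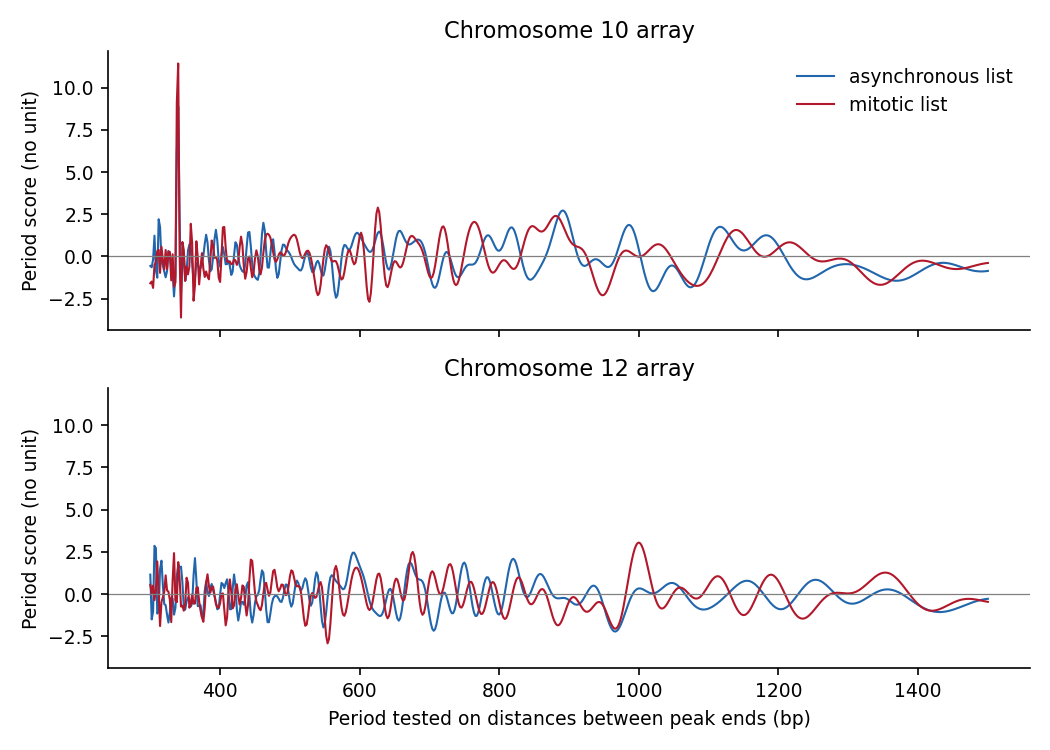
Period score (no unit) of distances between peak ends for periods from 300 to 1500 bp in the chromosome 10 (top) and chromosome 12 (bottom) arrays, asynchronous (blue) and mitotic (red) lists; the grey line marks 0. The chromosome 10 scores stand out at 340 bp, at 8.87 and 11.4, and no period of chromosome 12 exceeds 3.05.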

How the data were processed

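Peak lists were made by the authors with fastp, Bowtie2 and MACS2 on build hs1, per the submitters' processing notes, and each joins a condition's Odd and Even libraries, per the labels. No version, setting, filter or control library is given in the sources used here. The lists have no header, so columns were identified by their values and by MACS2's broad peak column order. The deposited columns used were peak positions, pileup signal, fold enrichment (a ratio), −log10 q and an unnamed score. Other unnamed deposited columns are not reported. Sequencing depth is unknown.

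Peaks were joined at gaps of up to 100 kb, and the region with most covered bases was taken as the array. Regions named are the 3 strongest and 3 widest peaks per list, the 3 longest empty stretches, the windows that differ most between lists, and groups of at least 20 peaks. Filled stretches, the lowest and highest windows and the block above 80% were picked after their values were seen. Members and measures were chosen with earlier results of these data known. Shares carry Clopper-Pearson and ratios conditional binomial intervals (95%), and medians carry order-statistic intervals. The code was tested on simulated data. Alternatives were stricter peak filters, other joining gaps, spans, overlaps, window lengths and peak positions. The gene table at hand is of GRCh38.p14 and was not used. Analyses ran in Python 3.11.15 with scipy 1.17.1, pandas 2.3.3 and numpy 2.4.6, and figures in matplotlib 3.10.9.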

Additional observations from a re-analysis of the deposited data

Results flagged for a closer look

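Over all listed peaks, the covered length of the arrays differed between lists in opposite directions. The mitotic over asynchronous ratio was 0.955 on chromosome 10 and 1.11 on chromosome 12. With 1 list per condition this difference was not tested, and with strong peaks only both ratios were above 1. With a −log10 q of at least 5 as the only limit, the chromosome 10 ratio was 0.9993, nearly equal lengths in both lists.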

How the results depend on the processing

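Of 116 alternative values for 37 results, 75 kept their direction and stayed within the range set for each, 38 left it and 3 turned. For covered length, coverage, the Jaccard index and the log2 difference between chromosomes, the range was a factor of 1.5 either way. That is wider than the differences in covered length between lists, so the count says little about those. The range was 6 bp for periods and the 95% interval of the main value for the rest. For peaks over the whole windows of the rule, coverage was 14.9 and 14.2% on chromosome 10 and 20.2 and 22.4% on chromosome 12 (asynchronous, then mitotic, as in all pairs here), since the windows are longer than the arrays. With strong peaks only, the peak ratio was 1.14 on chromosome 10 and turned to 1.03 on chromosome 12, the covered length ratio of chromosome 10 turned to 1.04, and asynchronous peaks met were 84.6 and 87.7% on chromosomes 10 and 12. With peaks of at least 500 bp the peak ratio of chromosome 10 turned to 0.941 and its asynchronous peaks met were 73.0%. With a −log10 q of at least 5, asynchronous peaks met were 83.9% on chromosome 10, median widths were 697 and 621 bp there and 1370 bp in the asynchronous list of chromosome 12, and median fold enrichments were 7.89, 8.14 and 7.46. A reciprocal overlap of 50% gave 62.7 and 61.3% met on chromosome 10 and 39.5 and 41.8% on chromosome 12. A fold enrichment of at least 8 made 40.8 and 48.2% of chromosome 10 and 31.9 and 45.5% of chromosome 12 peaks strong, and the top 25% of each list gave 18.4, 19.0, 5.66 and 9.52%. In the array alone, 57.4 and 62.1% of chromosome 12 running numbers were present. The leading period became, on chromosome 10, 340 bp from asynchronous ends, 616 and 626 bp from midpoints and 608 bp with asynchronous distances up to 10 kb, and on chromosome 12, 306 and 1000 bp from ends, 696 and 448 bp from midpoints and 634 bp with mitotic distances up to 10 kb. The difference between chromosomes in the log2 covered length ratio, 0.22, kept its direction under all 6 alternatives, from 0.16 to 0.29. The cause of these shifts was not tested. No paired analysis was possible because each condition has 1 merged list, and for the same reason no library could be left out.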
